A study of Mus musculus with 6 samples.

Results

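The cytosolic ribosomal protein genes of mouse liver were described across 6 livers, 3 from wild-type (WT) C57BL/6J males and 3 from males of that background without functional Zpbp2 (B6.Zpbp2-/-, written Zpbp2 KO). They were defined by name, as protein-coding genes called Rpl or Rps with a number and at most 1 of the letters a, x or l. Rplp0, Rplp1, Rplp2 and Rpsa also belong to the list, which was chosen with earlier results of these data known. GENCODE M21 lists 80 such genes, and 79 of them had a row among the 37991 gene IDs of the count table, 48 for the large and 31 for the small subunit. Rpl24 was not analysed here, and Rps3a1 and Fau, which also encode ribosomal proteins, fall outside the name pattern and are given at the end. All mice were 12 weeks old, 1 library was made per liver from 250 ng of total RNA by poly(A) selection, and the labels do not say how the Zpbp2 allele was made, which part of the gene it removes or whether the WT mice were littermates. The design asks which liver transcripts differ when Zpbp2, a gene for a sperm protein, is missing.

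Each ribosome is built from a large subunit, which joins amino acids, and a small subunit, which reads the mRNA. Its protein subunits are needed in nearly equal numbers, and their mRNAs are among the most abundant and shortest in a cell. In mammals these mRNAs begin with a run of pyrimidines, the terminal oligopyrimidine or TOP motif, through which mTORC1 and the RNA-binding protein LARP1 set how strongly they are translated and how long they are kept. Hepatocytes secrete large amounts of plasma protein and so hold many ribosomes.

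The libraries held 37904891 to 52955687 counts, and albumin (Alb) the defining transcript of hepatocytes, stood at 66065 to 76934 CPM (counts scaled to library size) in each. Zpbp2 itself had 4, 13 and 7 counts in WT livers 1 to 3 and 0 in each Zpbp2 KO liver, where a count of 0 allows up to 3 counts, or 0.0574 to 0.0657 CPM. WT liver 1 stood apart by transcripts of skeletal muscle, a set of genes picked after its values were seen. The muscle actin gene Acta1 had 2069 counts there and 0 to 3 in the other 5 livers, the creatine kinase gene Ckm had 1043 against 0 to 2, and the troponin gene Tnnt3 had 1102 against 0 to 4. In the tests below, edgeR called 2 of 14686 genes, or 0.0136%, at an adjusted p below 0.05.

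Start regions of the members are shown first, because the pyrimidine run that marks these mRNAs is a shared feature that the name pattern did not use. RefSeq start regions (GRCm38.p6, 250 bases before to 50 after an annotated start) were found for 59 of the 79 genes. Of these, 51 genes (86.4%) held a run of at least 8 C or T bases on the transcribed strand within 50 bases of a start, against 39.3% of the 27025 genes with such a region. A run of at least 8 purines in the same place was found in 13 of the 59 genes, against 41.1% of all. The longest run had a median of 11 bases in the members and 7 in all genes. In the windows below the longest run is in capitals, and the genes are members that the results turn on. Annotated starts can lie some bases away from the starts used in liver, so the run need not begin at the first base.
Rps12, chr10:23787180-23787209, minus strand: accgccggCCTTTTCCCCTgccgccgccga
Rpl11, chr4:136053359-136053388, minus strand: gccggaagTCTCCCTCTCTCTTCCTgttct
Rpl13a, chr7:45128722-45128751, minus strand: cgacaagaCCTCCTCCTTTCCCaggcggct
Rplp2, chr7:141447638-141447667, plus strand: cgtcagcgTCTTCCTTTCgccgccggacgc
Rps18, chr17:33955646-33955675, minus strand: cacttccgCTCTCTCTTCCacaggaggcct
Rps6, chr4:86857347-86857376, minus strand: aagtcgggCCTCTTTTTCgtgacgcctccc
Rps27, chr3:90213629-90213658, minus strand: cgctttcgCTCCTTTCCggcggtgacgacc
Rps27l, chr9:66946056-66946085, plus strand: cgcctccaCTCCTCTCCactcctccccgcc
Rplp0, chr5:115559470-115559499, plus strand: ccgcctggTTCTCCTataaaaggcacacgc
Rpl10l, chr12:66284424-66284453, minus strand: ctctatgaTTCCCgcaaggcttgatgggta
The first 8 hold a run of 9 to 17 pyrimidines. Rplp0, with 7, and Rpl10l, a copy known to be used in the testis, with 5, fall short of the limit.

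Other short motifs were searched on both strands of the same regions. CCGGAAG, the core bound by ETS-family factors such as GABP, occurred in 25 of 59 members (42.4%) and in 9.93% of all genes. Its reverse complement opens with pyrimidines, so a match can lie over a pyrimidine run. GGGCGG, the core of the SP1 motif, occurred in 36 members (61.0%) against 38.2% of all genes, and AANATGGC, which holds the core of the YY1 motif, in 10 (16.9%) against 6.96%. TATAAA occurred in 6 members (10.2%) and in 15.7% of all genes. These are counts of letters in a window and not sites shown to be bound.

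Ribosomal protein mRNAs were abundant in every liver, but not equally so. The tested members had mean levels of 56.6 to 532 CPM in WT livers, and none of them had fewer than 2189 counts in any library. Per kilobase of transcript, the median was 225 CPM per kilobase, with quartiles of 153 and 274. Rpl13a, a large subunit protein, had the highest level in WT livers per length of the median transcript (676 ± 12.7 CPM per kilobase, SD, n = 3). Rplp1, an acidic protein of the stalk that recruits elongation factors, followed with 576 ± 43.2, and Rps2, at the mRNA entry channel, with 524 ± 31.8. At the other end stood Rpl35 (70.4 ± 1.08), Rpl22 (43.7 ± 3.24) and Rps20 (28.8 ± 1.44 CPM per kilobase). For Rps20 the length in the annotation is 3706 bases, far above the members' median of 704, and its level without the length, 107 ± 5.33 CPM, lay inside the range of the others.

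**Figure D1:**
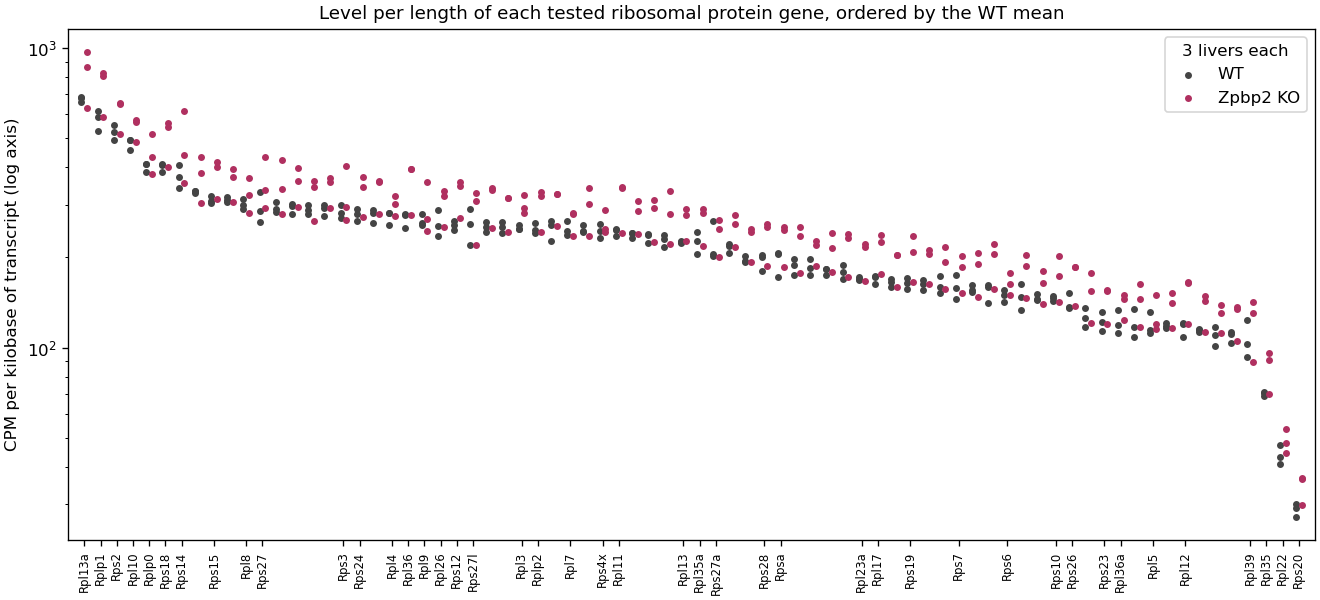
Level of each tested ribosomal protein gene in CPM per kilobase of transcript (log axis), with 1 point per liver, grey for the 3 WT and red for the 3 Zpbp2 KO livers, ordered by the WT mean, with names only for genes given in the text. The members lie between 28.8 and 676 CPM per kilobase in WT livers, most of them within a narrow band, and 1 of the 3 Zpbp2 KO points sits near the WT points for most genes.

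The order of these levels was shared by the livers, while most neighbours in it could not be told apart. Spearman's rho of the levels per length between pairs of livers ran from 0.952 to 0.989 over the 76 tested members, which share their annotation lengths. Of 75 neighbouring pairs in the WT order, 9 had no overlap between their WT livers. Rpl13a was separated from Rplp1 and the 3 lowest genes from each other, whereas Rplp0 (401 ± 14.7) and Rps18 (401 ± 13.0 CPM per kilobase) were alike. The median over members was 197 for the large and 233 for the small subunit. Lengths came from the median coding transcript of a gene, and with the longest transcript the order correlated at a rho of 0.770 with the one given here. The ends of the order change with that choice: Rpl13a then stood at 320 CPM per kilobase, below Rplp1 (576), Rps2 (486), Rpl10 (406) and Rps18 (389), and Rps15a (14.8) took the lowest place from Rps20.

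Members took 1.30%, 1.23% and 1.29% of all counts in WT livers 1 to 3 and 1.62%, 1.47% and 1.25% in Zpbp2 KO livers 1 to 3. Zpbp2 KO livers 1 and 2 were thus above every WT liver, and Zpbp2 KO liver 3 lay within the WT range. The mean share was 1.27 ± 0.0360% in WT and 1.45 ± 0.186% in Zpbp2 KO livers (SD, n = 3), so the groups overlapped and the spread was wider in the knockout. In bulk tissue, more RNA per cell and more cells of a type rich in these mRNAs cannot be told apart.

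The subunits kept their proportion in every liver. Large subunit genes took 0.767%, 0.736% and 0.764% of counts in WT and 0.954%, 0.876% and 0.746% in Zpbp2 KO livers. Small subunit genes took 0.532%, 0.495% and 0.522% in WT and 0.669%, 0.594% and 0.507% in Zpbp2 KO livers. The ratio of large to small was 1.44, 1.49 and 1.46 in WT and 1.43, 1.47 and 1.47 in Zpbp2 KO livers. Its mean was 1.46 ± 0.0223 in WT and 1.46 ± 0.0265 in Zpbp2 KO livers (SD, n = 3), a difference of -0.0061 that is smaller than either SD and whose sign depends on single livers (-0.0170 to 0.0092 with each left out in turn). Per kilobase of transcript the ratio was 1.42 ± 0.0315 and 1.41 ± 0.0242.

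**Figure D2:**
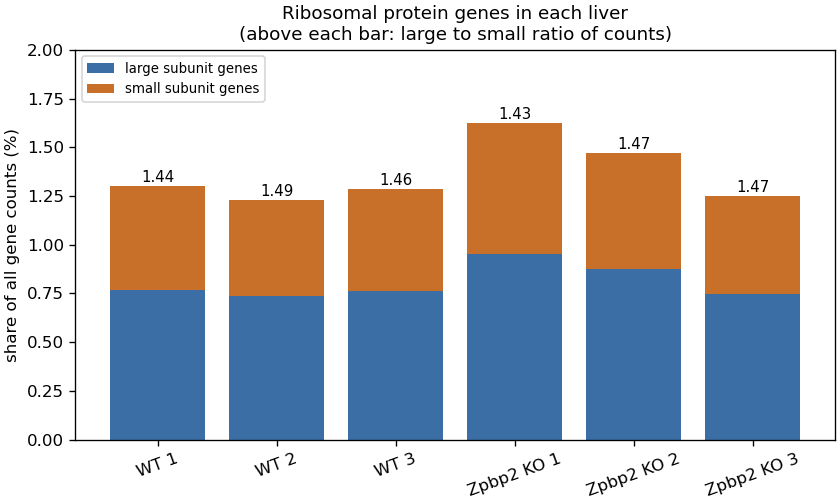
Share of all gene counts (%) taken by ribosomal protein genes in each liver, large subunit genes in blue and small subunit genes in orange, with the large to small ratio above each bar. Zpbp2 KO livers 1 (1.62%) and 2 (1.47%) stand above the WT livers (1.23% to 1.30%), Zpbp2 KO liver 3 (1.25%) does not, and the ratio stays between 1.43 and 1.49.

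Gene by gene the pattern was the same. Relative to the WT mean on the log2(CPM + 0.5) scale, the median member stood at 0.04, -0.06 and 0.02 in WT livers and at 0.36, 0.34 and -0.03 in Zpbp2 KO livers. All 76 tested members were above the WT mean in Zpbp2 KO livers 1 and 2, and 26 of them were in Zpbp2 KO liver 3. Above every WT liver stood 76 members in Zpbp2 KO liver 1, 71 in liver 2 and 4 in liver 3. Counts of this kind over all tested genes were not taken, so how far they are particular to the members is not shown. Short genes outside the list also stood high in livers 1 and 2, with medians of 0.11 and 0.12 on the same scale. The highest liver for a member was Zpbp2 KO 1 for 45 members and Zpbp2 KO 2 for 31. Of the small subunit genes 24 peaked in liver 1 and 7 in liver 2, and of the large subunit genes 21 and 24. The lowest liver was WT 2 for 48 members, Zpbp2 KO 3 for 19, WT 1 for 8 and WT 3 for 1. Highest and lowest livers were not counted over all tested genes either.

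**Figure D3:**
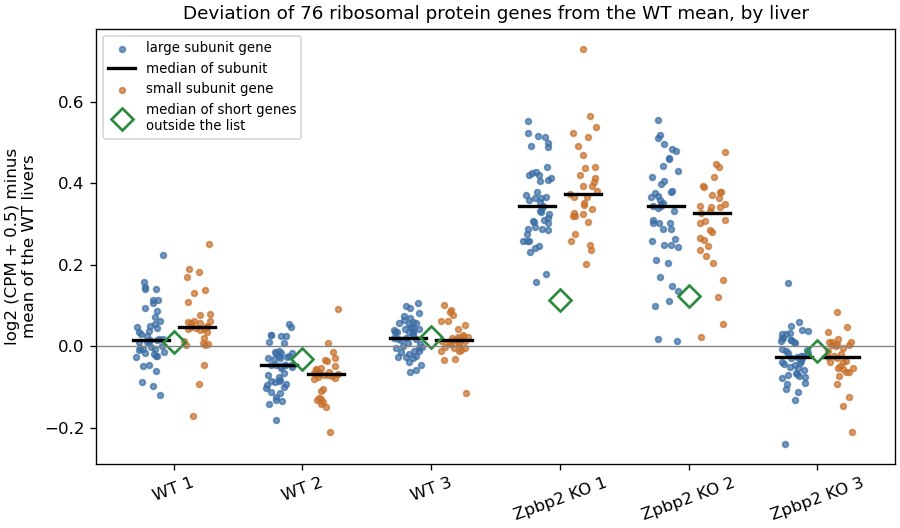
Each point is a tested ribosomal protein gene, placed by its log2(CPM + 0.5) minus the mean of the 3 WT livers, in each of 6 livers, with black bars for the median of each subunit and open green diamonds for the median of 2704 short genes outside the list. Both subunits sit near 0.3 to 0.4 in Zpbp2 KO livers 1 and 2 and near 0 in Zpbp2 KO liver 3, and the diamonds are displaced the same way by less (0.11, 0.12 and -0.01).

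No member was called between the genotypes. By edgeR's quasi-likelihood test, 0 of 76 members passed (smallest adjusted p = 0.798), and DESeq2 called 0 as well, against 0.184% of all genes called higher by DESeq2. At an unadjusted p below 0.05, 10 members were higher by edgeR, against 2.86% of all tested genes, and 9 by DESeq2, against 2.39%. Their fitted log2 fold changes, Zpbp2 KO over WT, were above 0 for all 76, against 52.9% of all tested genes, with a range of 0.09 to 0.40. The median was 0.23 for the members, 0.23 for the large and 0.24 for the small subunit, and 0.01 for all tested genes. The members differed little from each other (SD between genes 0.0675), and the median SE of a member was 0.127. Only 4 members, Rps12, Rpl17, Rpl3 and Rpl13, were higher in each Zpbp2 KO liver than in any WT liver, or 5.26%, close to the 5.56% of all tested genes. Without Zpbp2 KO liver 3, a choice that leaves 2 knockout livers, 65 members had an unadjusted p below 0.05, against 7.0% of all genes, 0 were called (smallest adjusted p = 0.278 by edgeR) and the median was 0.34. With any other liver left out, 0 to 2 of 76 members had such a p, a share near or below that of all genes. There were 2 members without WT liver 1 (2.81% of all genes), 1 without WT liver 2 (1.88%) and 2 without WT liver 3 (1.7%). There were 0 without Zpbp2 KO liver 1 (2.39% of all genes) and 1 without Zpbp2 KO liver 2 (3.49%).

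**Figure D4:**
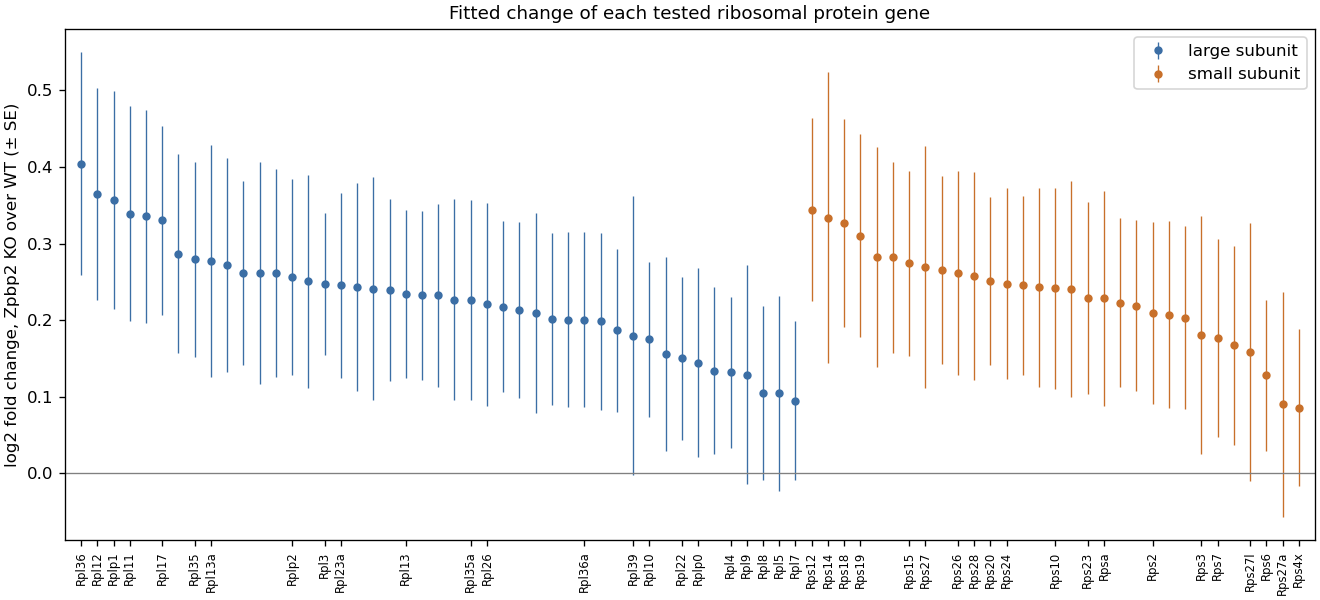
Fitted log2 fold change, Zpbp2 KO over WT, of each of the 76 tested ribosomal protein genes, with bars of 1 SE, the large subunit in blue and the small subunit in orange, each in descending order, with names only for genes given in the text. All points lie above 0, between 0.09 for Rps4x and 0.40 for Rpl36, and none was called.

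Among large subunit genes, those with the smallest p-values encode proteins from different places of the subunit. Rpl36 (ENSMUSG00000057863, chromosome 17) had 106, 95.7 and 107 CPM in WT and 151, 151 and 106 CPM in Zpbp2 KO livers. The first 2 knockout livers stood above WT and the other within it, with a log2 fold change of 0.40 ± 0.145 (SE, adjusted p = 0.798 by edgeR), the highest of all members. Rpl17 (ENSMUSG00000062328, chromosome 18), which lines the exit tunnel of the growing protein, had 180, 172 and 182 CPM in WT and 250, 236 and 185 CPM in Zpbp2 KO livers. The groups did not overlap, but the lowest knockout liver was just above the highest WT liver (0.33 ± 0.123). Rpl3 (ENSMUSG00000060036, chromosome 15), which reaches towards the peptidyl transferase centre, had 203, 209 and 203 CPM in WT and 264, 238 and 229 CPM in Zpbp2 KO livers (0.25 ± 0.0930). It is the clearest case in which Zpbp2 KO liver 3 also stood above WT. Rpl12 (ENSMUSG00000038900, chromosome 2), at the base of the stalk, had 135, 150 and 149 CPM in WT and 204, 206 and 149 CPM in Zpbp2 KO livers (0.36 ± 0.138). Here the knockout liver 3 lay between the WT livers.

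The stalk of the large subunit is formed by Rplp0 with Rplp1 and Rplp2. Rplp0 (ENSMUSG00000067274) had 328, 349 and 351 CPM in WT and 442, 370 and 325 CPM in Zpbp2 KO livers (0.14 ± 0.123). Rplp1 (ENSMUSG00000007892) had 264, 292 and 306 CPM in WT and 410, 402 and 293 CPM (0.36 ± 0.142). Rplp2 (ENSMUSG00000025508) had 108, 111 and 117 CPM in WT and 149, 144 and 109 CPM (0.26 ± 0.128). In all 3 genes Zpbp2 KO liver 3 lay within or below the WT livers, and in Rplp0 liver 1 alone exceeded WT by a wide margin. Rpl5 and Rpl11 travel with the 5S RNA and bind MDM2 when ribosome assembly fails. Rpl5 had 190, 161 and 165 CPM in WT and 216, 173 and 165 CPM in Zpbp2 KO livers (0.10 ± 0.127), and the genotypes overlapped. Rpl11 had 179, 172 and 181 CPM in WT and 249, 247 and 176 CPM (0.34 ± 0.140). These partners of 1 particle thus had different fitted values, a difference that was not tested.

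At the peptidyl transferase centre, Rpl8 and Rpl10 had log2 fold changes of 0.11 and 0.17, beside the 0.25 of Rpl3. The 6 genes of the exit tunnel and its rim, Rpl4, Rpl17, Rpl23a, Rpl26, Rpl35 and Rpl39, ran from 0.13 to 0.33 with a median of 0.23. Rpl7 was the lowest of the large subunit, with 264, 244 and 238 CPM in WT and 281, 280 and 236 CPM in Zpbp2 KO livers (0.10 ± 0.104). Its 3 knockout values spanned those of WT.

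In the small subunit, Rps12 (ENSMUSG00000061983, chromosome 10), a protein of the head, had the smallest p-value of all members. It stood at 126, 122 and 130 CPM in WT and 170, 175 and 134 CPM in Zpbp2 KO livers, a log2 fold change of 0.34 ± 0.119 (adjusted p = 0.798 by edgeR). The groups did not overlap, with liver 3 again the lowest of the knockout. Rps15, Rps18 and Rps23, in the head and at the decoding centre, ran from 0.23 to 0.33. Rps2 and Rps3 at the mRNA entry had 0.21 and 0.18, and Rps14, Rps26 and Rps28 at the mRNA exit ran from 0.26 to 0.33. Rpsa, the laminin receptor protein of the small subunit, had 305, 366 and 362 CPM in WT and 447, 435 and 328 CPM in Zpbp2 KO livers (0.23 ± 0.140). Its lowest value was in WT liver 1, and its knockout liver 3 lay between the WT livers.

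The lowest fitted values of the small subunit were those of Rps4x and Rps27a. Rps4x (ENSMUSG00000031320), the X-linked form of this protein, had 252, 226 and 238 CPM in WT and 281, 242 and 236 CPM in Zpbp2 KO livers (0.09 ± 0.103). Rps27a (ENSMUSG00000020460), made as a fusion with ubiquitin, had 189, 145 and 147 CPM in WT and 190, 178 and 144 CPM (0.09 ± 0.147). Its high WT value was that of WT liver 1. Rps6, the protein that S6 kinases phosphorylate in response to mTORC1, had 137, 125 and 131 CPM in WT and 156, 143 and 131 CPM in Zpbp2 KO livers (0.13 ± 0.0985). In all 3 genes the genotypes overlapped.

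Some members were high in Zpbp2 KO liver 1 and much less so in liver 2. The widest gap between liver 1 and the next knockout liver was that of Rps14, a platform protein, with 244, 204 and 222 CPM in WT and 370, 263 and 212 CPM in Zpbp2 KO livers. Rps3, an entry channel protein that also takes part in DNA repair, had 285, 257 and 268 CPM in WT and 385, 280 and 253 CPM. Rpl9 had 206, 190 and 192 CPM in WT and 263, 198 and 181 CPM. In these genes, picked for this gap after their values were seen, liver 1 was the highest. Zpbp2 KO liver 2 was above every WT liver in Rps14 and within the WT range in Rps3 and Rpl9. Without Zpbp2 KO liver 1, Rps3, Rpl5 and Rpl9 had fitted values of -0.02, -0.02 and -0.05, and 73 of 76 members remained above 0, with a median of 0.16.

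Genes in which loss of 1 copy causes Diamond-Blackfan anaemia in people, a failure of red cell production, gave the same picture. The 8 such members examined, Rpl5, Rpl11, Rpl35a, Rps7, Rps10, Rps19, Rps24 and Rps26, ran from 0.10 to 0.34 with a median of 0.24. Rps19, the first of them to be linked to the disease, had 108, 99.8 and 105 CPM in WT and 150, 133 and 106 CPM in Zpbp2 KO livers (0.31 ± 0.133). The 4 X-linked members, Rpl10, Rpl36a, Rpl39 and Rps4x, ran from 0.09 to 0.20. The 7 members on chromosome 11, which also carries Zpbp2, had a median of 0.25, beside 0.23 for the other 69, and 0 of the 7 had groups without overlap.

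The pattern also takes in copies whose use is restricted to other tissues, and these were the 3 members that did not pass the filter on low counts. Rpl10l, an autosomal copy of the X-linked Rpl10 that takes over in male germ cells, had 0 counts in all 6 livers, where Rpl10 stood at 355, 330 and 355 CPM in WT and 410, 415 and 350 CPM in Zpbp2 KO livers. Rpl39l, another copy used in the testis, had 1, 1 and 0 counts in WT and 2, 0 and 0 in Zpbp2 KO livers, all within the 3 counts that a 0 allows. Its partner Rpl39 had 75.8, 57.1 and 62.7 CPM in WT and 86.8, 80.0 and 54.8 CPM in Zpbp2 KO livers. These testis copies were thus at or below the limit of detection in liver at this depth.

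Rpl3l, the form of Rpl3 made in skeletal and heart muscle, had 54, 5 and 3 counts in WT and 8, 7 and 4 counts in Zpbp2 KO livers. The high value was that of WT liver 1, the library that also held Acta1, Ckm and Tnnt3, and the part of those muscle transcripts in the Rpl3l value was not tested. Rps27l differs from these, as it was as abundant as its partner. It had 144, 109 and 129 CPM in WT and 153, 164 and 109 CPM in Zpbp2 KO livers, and Rps27 had 132, 105 and 114 CPM in WT and 172, 134 and 116 CPM. Per length in WT livers, Rps27l stood at 255 ± 35.2 and Rps27 at 293 ± 35.0 CPM per kilobase (SD, n = 3), a gap close to their SD. Reads of these near-identical copies, and of processed pseudogenes, could be shared out or discarded in counting. Pseudogenes named for a ribosomal protein gene took 0.00526% to 0.00816% of a library's counts. That share leaves out pseudogenes under other names, such as Gm names, so it does not show how many reads pseudogenes took.

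Short transcripts outside the list stood high in the same livers as the members. The 2704 tested genes that are no longer than 936 bases, the length that 3 in 4 tested members do not exceed, had a median of 0.11 on the log2 scale, and 1863 of them were above 0. The 11464 longer genes had a median of -0.01. By liver, the short genes stood at 0.01, -0.03 and 0.02 against the WT mean in WT livers and at 0.11, 0.12 and -0.01 in Zpbp2 KO livers. Zpbp2 KO livers 1 and 2 were thus high for short genes in general, and liver 3 was not. Across genes, Spearman's rho between transcript length and log2 fold change was -0.435 over 76 members and -0.313 over 14168 other genes, points that share the same 6 libraries. Fitting each library's dependence on length and GC content as an offset lowered the members' median from 0.23 to 0.13, with all 76 still above 0. In that fit 4 members had an unadjusted p below 0.05, against 2.4% of all genes. Rpl36, Rps12 and Rpl3 then stood at 0.25, 0.21 and 0.16.

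**Figure D5:**
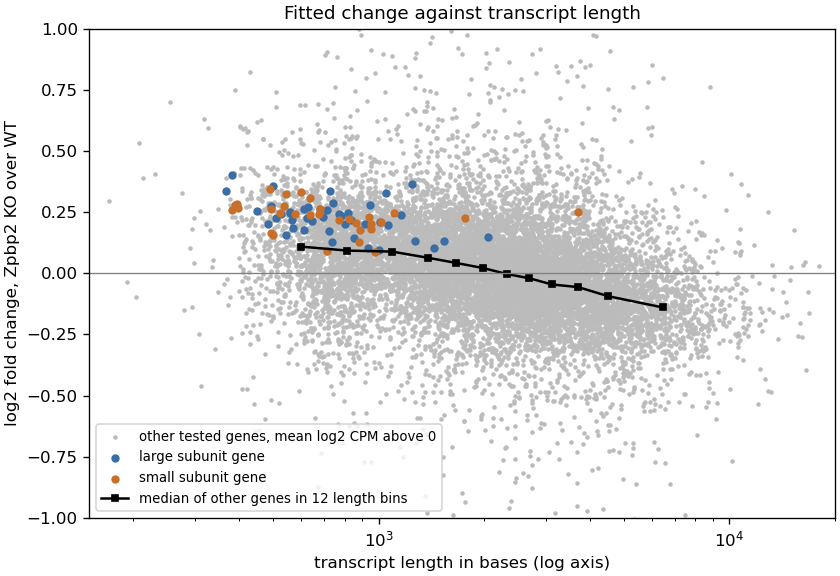
Fitted log2 fold change, Zpbp2 KO over WT, against transcript length in bases (log axis), with large subunit genes in blue, small subunit genes in orange, other tested genes with a mean log2 CPM above 0 in grey, and the median of these in 12 length bins as black squares. The bin medians run from 0.11 at the shortest to -0.14 at the longest transcripts, and nearly all members lie above the line at their length (87 grey points fall outside the axis).

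Markers of other cells were measured in the same livers. Red cell transcripts, as a sum, stood high in the same livers as the members, though not each gene to the same degree. Haemoglobin gene Hbb-bs had 14.4, 43.6 and 31.5 CPM in WT and 97.5, 97.7 and 23.7 CPM in Zpbp2 KO livers, and Hba-a1 had 6.46, 20.4 and 14.4 CPM in WT and 35.4, 49.7 and 10.9 CPM. The 7 erythroid genes examined summed to 154, 228 and 226 CPM in WT and 308, 360 and 170 CPM in Zpbp2 KO livers. Hbb-bs and Hba-a1 made up the smaller part of that sum in each liver. None of the 7 was at 0 in all 6 livers together. All 6 tested erythroid genes were above 0, with log2 fold changes from 0.04 to 1.29, and 0 were called. The 8 hepatocyte markers summed to 93485 to 104351 CPM in WT and 106202 to 110219 CPM in Zpbp2 KO livers, without overlap. Zpbp2 KO liver 3 was above WT as well. Alb alone made up most of this sum in each liver. Only 1 of the 8 markers was higher in each Zpbp2 KO liver than in any WT liver, as 5.56% of all tested genes were. Of the 8 markers, 7 were above 0 and 0 were called. The exception was Tat, a tyrosine-degrading enzyme, at -0.43 ± 0.148, the 1 hepatocyte marker with an unadjusted p below 0.05. Ttr, the thyroid hormone carrier, had 6325, 5652 and 6143 CPM in WT and 6942, 7953 and 5384 CPM in Zpbp2 KO livers. Cps1, the first enzyme of the urea cycle, had 4075, 4628 and 3836 CPM in WT and 3926, 3656 and 5096 CPM in Zpbp2 KO livers. Ttr was thus high in the same livers as the members and Cps1 was not. Summed levels in WT and Zpbp2 KO livers were 2.02 to 4.42 and 3.22 to 5.59 CPM for 9 T and NK cell markers, 9.22 to 17.8 and 15.8 to 18.1 CPM for 7 B and plasma cell markers, and 214 to 305 and 124 to 389 CPM for 7 Kupffer cell and macrophage markers. They were 138 to 203 and 92.9 to 228 CPM for 5 endothelial and 175 to 227 and 152 to 229 CPM for 5 stellate cell markers. Above 0 were 9 of 9 T and NK cell, 6 of 7 B and plasma cell, 7 of 7 Kupffer cell, 3 of 5 endothelial and 2 of 5 stellate cell markers, and 0 of them were called. None of these 5 sums was high in Zpbp2 KO livers 1 and 2 alone. The part of these cells in the level of the members was not tested.

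Ribosomal genes outside the name pattern behaved alike. All 6 examined, Rps3a1, Fau, Rack1, Rpl22l1, Rpl36al and Rpl7l1, were above 0, with a median of 0.24 and 0 called. Rpl22l1, a copy of Rpl22 that can replace it, had the highest value (0.39 ± 0.139, from 26.9 ± 0.698 to 35.2 ± 6.39 CPM, SD, n = 3) and no overlap between the groups. Fau, which encodes a small subunit protein joined to a ubiquitin-like peptide, had 0.29 ± 0.124. Of 77 genes for mitochondrial ribosomal proteins, 75 were above 0, against 52.9% of all tested genes, with a median of 0.15 and 0 called. Their transcripts are also short, with a median of 1056 bases. Genes outside the members in the length bin around 1092.5 bases had a median of 0.09. Mrpl27 (0.51 ± 0.160) and Mrps28 (0.37 ± 0.144) had the smallest p-values there, and Mrps9 stood at -0.06 ± 0.117.

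Genes that build ribosomes or carry the same TOP start showed medians nearer to that of all genes. Among 20 translation factors and other genes with a TOP start, 11 were above 0 and 9 below, with a median of 0.03. Tpt1, a small abundant protein of growing cells, had 0.19 ± 0.126, Pabpc1, the poly(A)-binding protein, -0.06 ± 0.0875 and Eif2s3x, an initiation factor subunit, -0.30 ± 0.152. The median transcript of this group has 1408 bases, against 704 for the members. Ribosome biogenesis factors had a median of 0.06 (36 of 47 above 0), with Fbl, the fibrillarin that methylates ribosomal RNA, at 0.17 ± 0.105 and the nucleolar protein gene Ncl at -0.12 ± 0.116. Genes of RNA polymerase I and its factors had a median of 0.05 (14 of 17 above 0), and Ubtf, which opens the ribosomal DNA, stood at -0.13 ± 0.103. Other translation factors had a median of 0.03 (20 of 30 above 0), with Eif4g2 at -0.24 ± 0.103 lower in each Zpbp2 KO liver than in any WT liver, as 6.01% of all tested genes were. No gene of these lists was called by edgeR.

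The mTORC1 and LARP1 list lay on the other side, with 7 of 21 genes above 0 and a median of -0.11. Its transcripts are long, with a median of 3250 bases. Sesn2, a stress-induced inhibitor of mTORC1, had 15.2, 10.7 and 11.3 CPM in WT and 6.90, 6.40 and 7.77 CPM in Zpbp2 KO livers (-0.82 ± 0.169, adjusted p = 0.449 by edgeR). Eif4ebp2, a translation repressor that mTORC1 inactivates, had 107, 112 and 97.6 CPM in WT and 91.9, 58.8 and 96.4 CPM (-0.35 ± 0.178). Both were lower in each knockout liver than in any WT liver, as 6.01% of all tested genes were. No other gene of the 21 had groups without overlap, and the highest log2 fold change of the list was 0.35. At an unadjusted p below 0.05, 1 gene of the list was lower, against 2.93% of all tested genes. Genes of p53 and ribosomal stress had a median of -0.00 over 12 genes, with Trp53 at 0.21 ± 0.143 and Ccng1 at -0.15 ± 0.0858.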

How the data were processed

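The deposited values are raw counts of reads for each Ensembl gene ID in each library. STAR, Picard, HTSeq and the build mm9 are named per the submitters' processing notes. Versions, annotation and strand setting are not given in these sources, so near-identical copies are less certain. All 6 sample columns were matched to samples by title.

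Symbols, biotypes and transcript lengths came from GENCODE M21, with RefSeq names for IDs it lacks. Of 37991 IDs, 32938 (86.7%) had a symbol. Start regions came from RefSeq (GRCm38.p6) and were matched by symbol.

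The test was the two-sided quasi-likelihood F-test of edgeR 4.0.16 (R 4.3.3), with filterByExpr (minimum count 10, 14686 genes, 76 members), TMM scaling and Benjamini-Hochberg adjustment over all tested genes, called below 0.05. Fold changes are given as log2 of Zpbp2 KO over WT, ± SE. CPM use TMM-scaled library sizes. With 3 livers per group, p-values set the difference between genotypes against the spread between these samples, estimated with information from other genes. The origin of the animals is unstated, so how far that spread holds for other mice is not known. Limits from counts of 0 cover counting error only.

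The members and lists were chosen with earlier results of these data known. Genes with values for each liver were the 5 members with the smallest p, the 3 with the highest and lowest log2 fold change, the 3 with the highest and lowest level per length, Rpsa, the stalk genes, Rps6, Rps4x and the restricted copies with their partners; of related lists, up to 2 genes per direction by smallest p. Groups by role, and any other gene, were chosen after values were seen. A few genes are not reported here. Alternatives were DESeq2 1.42.0, limma-voom (limma 3.58.1), other scalings and filters, a robust fit, a replicate block, length and GC offsets (splines with 4 degrees of freedom) and each liver left out.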

Additional observations from a re-analysis of the deposited data

How the results depend on the processing

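In each alternative run, 0 members were called, and all tested members were above 0 except without Zpbp2 KO replicate 1 (73 of 76) and without the filter on low counts (77 of 78, the added genes being Rpl3l and Rpl39l). The members' median log2 fold change was 0.20 to 0.24 under the other tools, scalings and filters. It was 0.13 with the length and GC offsets, also with the trend estimated without the members (0.13, an alternative added after seeing the data), and 0.16 to 0.34 with each liver left out in turn. The medians of all tested genes stayed between -0.02 and 0.02. Over all genes, 0 were called higher and 2 lower. DESeq2 called 27 higher and 49 lower, the fit without a filter 3 and 9, and fits without 1 liver 0 to 1 higher and 2 to 4 lower. The cause was not tested. The difference in share of counts, 0.176 percentage points, was 0.0887 without Zpbp2 KO replicate 1 and 0.274 without Zpbp2 KO replicate 3. Whether the replicate numbers pair the livers could not be decided. The deviations of same-numbered livers from their group means correlated at 0.142, 0.197 and -0.237, and WT replicate 1 correlated best with Zpbp2 KO replicate 3. With 3 livers per group these deviations are tied to each other, so the correlations cannot exclude a pairing. With the replicate block, 0 genes were called higher and 2 lower, 0 members were called, the members' median was 0.22 and 4 of them had an unadjusted p below 0.05, against 2.54% of all genes. Depth did not limit the 76 tested members, each with at least 2189 counts per library.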
